A study of Mus musculus with 4 samples.

Results

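The genes described here encode the enzymes that cut and finish prohormones in the secretory granules of islet cells, together with their binding proteins. They are Pcsk1, Pcsk2, Pcsk1n, Scg5, Cpe and Pam, 6 of the 19074 genes listed in each library, chosen by name. They were read in mouse pancreatic islets by single-cell RNA sequencing on the 10x Genomics platform, in which each captured RNA molecule is counted once through a unique molecular identifier (UMI). There were 2 knockout (KO) and 2 wild type (WT) libraries, all from C57BL/6 mice whose age is 7 weeks in the sample labels and 5 weeks in the series text. KO mice carried floxed Sel1L alleles and a Cre recombinase driven by the insulin gene Ins1, which is active in beta cells, and WT mice carried the floxed alleles (Sel1L f/f). SEL1L is the partner of the ubiquitin ligase HRD1 in the degradation of misfolded proteins of the endoplasmic reticulum, and the study addresses its role in the identity and function of beta cells. Cre was present in KO mice alone, so what Cre does and what the loss of Sel1L does cannot be told apart. Islets had recovered overnight in culture before they were dissociated with trypsin. The labels do not say whether the 2 libraries of a genotype came from separate animals, so every p-value measures only the spread between libraries, which may be technical.

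Peptide hormones are made as precursors that pass through the endoplasmic reticulum and are cut in maturing granules. The convertases PC1/3 and PC2 cut after pairs of basic residues, carboxypeptidase E trims these residues from the new ends, and peptidylglycine alpha-amidating monooxygenase turns a terminal glycine into an amide. PC1/3 and PC2 together turn proinsulin into insulin and C-peptide, while in alpha cells PC2 releases glucagon from proglucagon. Each convertase has a binding protein made in the same cells: proSAAS inhibits PC1/3, and 7B2 is needed for PC2 to become active.

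Cells were sorted into classes by their hormone share of UMIs. Beta cells had at least 10% of their UMIs from Ins1 and Ins2. Alpha and delta cells had at least 3% from Gcg (glucagon) or Sst (somatostatin), each with insulin under 5%, and PP cells had at least 3% from Ppy (pancreatic polypeptide) with the other limits kept. After removal of predicted doublets the KO libraries held 2373 and 1374 beta cells, 762 and 326 alpha cells, 307 and 230 delta cells and 226 and 118 PP cells. The WT libraries held 3522 and 3457 beta cells, 1111 and 943 alpha cells, 459 and 533 delta cells and 141 and 231 PP cells. Of the 13 non-hormone markers of beta, alpha and delta cells, 12 were highest in their own class in every library, whereas Pdx1 was higher in delta than in beta cells of both KO libraries. The KO beta class reached closer to the insulin limit: 7.67% and 6.48% of KO beta cells had 10 to 20% insulin UMIs, against 0.170% and 0.145% of WT beta cells. A further 76 and 24 KO cells and 15 and 7 WT cells lay just outside it, with 5 to 10% insulin and no class. Between 1 and 9 cell barcodes were shared by any pair of libraries.

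The libraries held 160208775 and 99156230 UMIs (KO) and 215467602 and 228515309 UMIs (WT). Insulin took a median of 40.0% and 43.9% of the UMIs of KO beta cells, against 68.2% and 68.8% in WT beta cells. Levels are therefore given as counts scaled to the same total (CPM) over the UMIs left after the 7 hormone genes Ins1, Ins2, Iapp, Gcg, Sst, Ppy and Pyy are set aside (non-hormone CPM), and also as mean UMIs per cell. The median beta cell held 21703 and 24022 non-hormone UMIs in KO libraries and 12145 and 12555 in WT libraries. The difference was not confined to beta cells, since the median endothelial cell held 10602 and 9700 non-hormone UMIs in KO libraries and 6809 and 6524 in WT libraries. Whether the higher count per KO cell is a property of the cells or of the libraries was not tested. Sel1l, the targeted gene, was at 87.8 and 92.1 non-hormone CPM in KO beta cells and 125.2 and 123.7 in WT beta cells. Reads from a 3′ assay can lie outside the deleted part, so this level does not check the deletion.

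Pcsk1 encodes PC1/3, the convertase that begins the cutting of proinsulin. It was the member with the lowest KO level relative to WT in beta cells, and the only 1 of the 6 that was lower under every scaling tried. The gene (ENSMUSG00000021587) lies on chromosome 13, 75089826 to 75134861 on the plus strand (GRCm38, GENCODE vM21). Its beta cell level was 160.4 and 139.3 non-hormone CPM in KO libraries, against 432.3 and 414.4 in WT libraries. Both KO values lay far below both WT values, a 2.83-fold lower mean. Tested with edgeR (quasi-likelihood, adjusted by Benjamini-Hochberg) under TMM scaling, which sets changes relative to the bulk of genes, Pcsk1 fell by 1.52 on the log2 scale (SE 0.0852, adjusted p = 7.6e-05). Counted per cell, KO beta cells held 3.67 and 3.59 Pcsk1 UMIs and WT beta cells 5.47 and 5.52. The change was -0.60 on the log2 scale both per cell and per UMI of all genes, and edgeR called it at both scalings.

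The start of Pcsk1 is shown because it carries the letters of a cyclic AMP response element, the site that CREB and ATF proteins bind, which is known in the Pcsk1 promoter from earlier work. The windows are RefSeq promoters of GRCm38.p6, 250 bases before to 50 bases after the annotated start, written 5′ to 3′ along the gene. Capitals mark TGACG on either strand (CGTCA when it lies on the other strand), and TGACGTCA, which holds the letters on both strands.
Pcsk1, chr13:75089607-75089906, plus strand: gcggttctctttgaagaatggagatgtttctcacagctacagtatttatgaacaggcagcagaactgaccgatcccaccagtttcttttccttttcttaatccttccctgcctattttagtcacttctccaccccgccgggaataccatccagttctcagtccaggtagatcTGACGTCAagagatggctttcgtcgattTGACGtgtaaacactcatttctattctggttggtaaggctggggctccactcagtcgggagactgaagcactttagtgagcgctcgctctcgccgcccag
Pcsk2, chr2:143545883-143546182, plus strand: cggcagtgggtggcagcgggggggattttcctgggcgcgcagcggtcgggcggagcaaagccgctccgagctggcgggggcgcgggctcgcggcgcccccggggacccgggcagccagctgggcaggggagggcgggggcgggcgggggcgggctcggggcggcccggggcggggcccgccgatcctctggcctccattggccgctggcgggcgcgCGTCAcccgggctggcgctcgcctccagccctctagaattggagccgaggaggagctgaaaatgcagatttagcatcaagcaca
Scg5, chr2:113829042-113829341, minus strand: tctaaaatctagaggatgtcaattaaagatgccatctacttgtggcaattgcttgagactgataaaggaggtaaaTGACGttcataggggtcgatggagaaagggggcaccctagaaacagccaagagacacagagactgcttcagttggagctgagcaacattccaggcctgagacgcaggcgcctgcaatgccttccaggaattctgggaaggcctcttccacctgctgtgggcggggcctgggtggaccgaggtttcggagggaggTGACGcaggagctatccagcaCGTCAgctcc

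The full element TGACGTCA was found in the Pcsk1 window, beginning 78 bases before the start, and in 1.79% of the 32851 promoter windows of the table. The shorter TGACG was found in 20.8% of all windows. The Pcsk1 window holds it 3 times, counting both strands of the full element, with the remaining match 50 bases before the start. The Pcsk2 window holds it 1 time, 34 bases before the start, in a sequence of 76.3% G and C against 49.3% for Pcsk1 and a median of 52.7% over all windows. The Scg5 window holds it 3 times, and the windows of Pcsk1n and Pam have no match. Windows were matched for 5 of the 6 members, and Cpe is only named. TGCTGA (part of the site of MAF proteins, in 19.5% of all windows), TGATGNAA (bound by pairs of C/EBP and ATF proteins, 3.97%) and TATAAA (the TATA box, 13.6%) had no match in any member's window, and CANNTG (the E-box, 72.3%) had none in that of Pcsk1. All were searched on both strands, and a match in letters does not show binding.

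The lower Pcsk1 level was spread over the KO beta cells. Each cell was thinned to 2000 non-hormone UMIs, which left out 27 and 23 KO and 18 and 8 WT beta cells with fewer. After thinning, 26.2% and 24.4% of KO beta cells kept a Pcsk1 UMI, against 52.8% and 51.3% of WT beta cells. Cells with 3 or more were 1.02% and 0.518% of KO and 7.13% and 6.87% of WT beta cells. Before thinning, 90.1% and 88.2% of KO and 94.6% and 95.5% of WT beta cells held at least 1 Pcsk1 UMI. So nearly all beta cells of both genotypes held the transcript, with fewer copies relative to other RNA in KO. In endothelial cells, which should lack the gene, no library held more than 4 Pcsk1 UMIs in all.

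**Figure D1:**
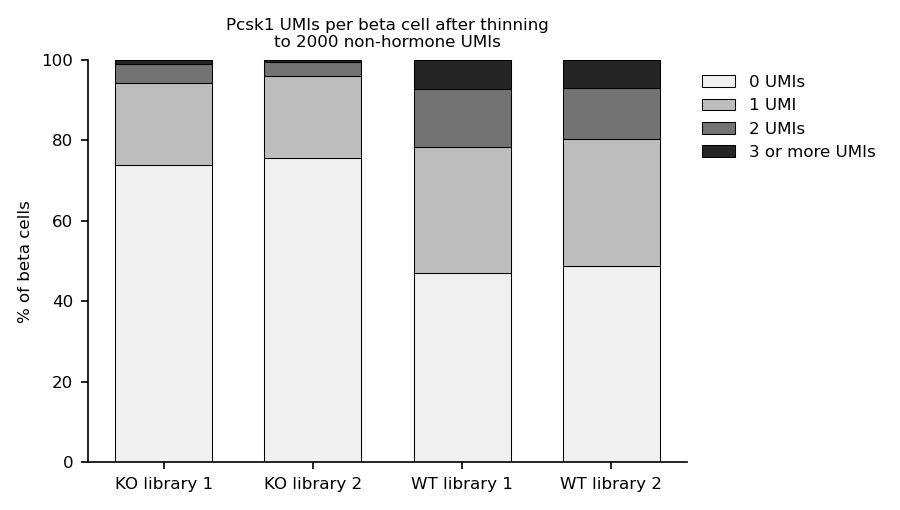
Share of beta cells (y axis, percent) with 0, 1, 2 or at least 3 Pcsk1 UMIs after every cell was thinned to 2000 non-hormone UMIs, for the 2 KO and 2 WT libraries (x axis). Cells without a Pcsk1 UMI made up 73.8% and 75.6% of KO and 47.2% and 48.7% of WT beta cells.

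Among the endocrine classes Pcsk1 was by far highest in beta cells, and edgeR did not call it in alpha or delta cells. In delta cells it was at 36.1 and 32.2 non-hormone CPM in KO and 34.9 and 39.0 in WT libraries, so the groups overlapped (log2 change -0.20, SE 0.138, edgeR adjusted p = 0.38). In PP cells it was at 45.0 and 29.0 in KO and 22.9 and 24.4 in WT libraries, with no overlap and no model fitted to this class. These PP levels rest on 138 and 53 Pcsk1 UMIs in KO and 28 and 49 in WT libraries. Alpha cells held only 27 and 8 Pcsk1 UMIs in KO and 35 and 35 in WT libraries, summed over all cells. A UMI was found in 2.89% and 2.45% of KO and 2.88% and 3.08% of WT alpha cells, against 1.84% and 0.625% of KO and 0 and 1.15% of WT endothelial cells. In macrophages the share was 0 and 5.17% in KO and 1.59% and 0.870% in WT libraries, from at most 3 UMIs, and no mesenchymal cell held one. Median depth was 25944 and 26570 UMIs in KO and 17661 and 18848 in WT alpha cells, but 10655 and 9725 in KO and 6866 and 6601 in WT endothelial cells. Set against non-hormone UMIs, alpha cells were at 1.99 and 1.40 CPM in KO and 2.82 and 3.29 in WT libraries, and endothelial cells at 1.58 and 0.439 in KO and 0 and 1.22 in WT libraries. With so few UMIs, alpha cell Pcsk1 could not be told from background in KO libraries, and its change is not read (log2 change -0.88, SE 0.337, edgeR adjusted p = 0.10). The KO effect on Pcsk1 was more negative in beta than in delta cells by 1.28 (log2 difference -1.28, SE 0.124, adjusted p = 2.2e-06, edgeR interaction test with the library as a block).

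Pcsk2 encodes PC2, the convertase shared by all endocrine cells of the islet. It lies on chromosome 2, 143546156 to 143816285 on the plus strand (ENSMUSG00000027419). Beta cells held 2319 and 2474 non-hormone CPM in KO libraries and 4682 and 3687 in WT libraries. The KO values lay close to each other and below both WT values, which were farther apart. Pcsk2 fell by 0.82 on the log2 scale relative to the bulk of genes (SE 0.120, edgeR adjusted p = 0.0021). Per cell the groups overlapped, with 53.1 and 63.7 UMIs in KO and 59.2 and 49.1 in WT beta cells, and the log2 change stood at 0.11 per cell and 0.083 per UMI of all genes, neither called. The fall of Pcsk2 is thus relative to other non-hormone RNA of these cells and was not found per cell.

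In alpha cells, where PC2 is the main convertase, Pcsk2 was at 4195 and 4514 non-hormone CPM in KO and 5308 and 4661 in WT libraries (log2 change -0.31, SE 0.100, adjusted p = 0.065). It was not called by edgeR in alpha cells or in delta cells (-0.16, adjusted p = 0.35), but it was called in alpha cells by DESeq2 (-0.31, adjusted p = 0.0059), without a filter on low counts (-0.31, adjusted p = 0.0069) and without WT library 2 (-0.41, adjusted p = 0.036). The effect in beta cells was more negative than that in alpha cells by 0.51 (log2 difference -0.51, SE 0.0942, adjusted p = 3.5e-04) and than that in delta cells by 0.63 (log2 difference -0.63, SE 0.0587, adjusted p = 1.4e-06). Scaled by cell number, the difference from alpha cells was -0.35 and no longer called (adjusted p = 0.0895).

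Pcsk1n encodes proSAAS, the inhibitor of PC1/3, and lies on the X chromosome, 7919822 to 7924410 on the plus strand (ENSMUSG00000039278). Beta cells held 3723 and 3219 non-hormone CPM in KO and 3353 and 3772 in WT libraries. The groups overlapped, and edgeR made no call (log2 change -0.06, SE 0.117, adjusted p = 0.70). Per cell, KO beta cells held 85.2 and 82.9 UMIs and WT beta cells 42.4 and 50.3, a change of 0.86 on the log2 scale that edgeR called, close to the change of the median gene per cell, 0.93. Relative to other RNA, the KO and WT levels of the inhibitor thus overlapped in beta cells, while those of the convertase it binds did not.

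In alpha cells, where its level was highest, Pcsk1n was at 5737 and 5473 non-hormone CPM in KO libraries, against 7519 and 8024 in WT libraries. The KO values were below both WT values, and Pcsk1n fell by 0.58 (SE 0.0936, edgeR adjusted p = 0.0069), though the change was 0.18 per cell, not called (adjusted p = 0.10). In delta cells it was at 3111 and 2996 in KO and 3357 and 3952 in WT libraries and fell by 0.35 (SE 0.0841, adjusted p = 0.028), with 0.32 per cell (adjusted p = 0.055). The delta call was lost without WT library 2 (log2 change -0.24, adjusted p = 0.13) or KO library 2 (-0.33, adjusted p = 0.068). The KO effect was higher in beta than in alpha cells by 0.53 (SE 0.101, adjusted p = 5.3e-04) and than in delta cells by 0.31 (SE 0.0619, adjusted p = 0.0022). Without KO library 1 the difference from delta cells was 0.22 and no longer called (adjusted p = 0.054).

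Scg5 encodes 7B2, the protein that binds the PC2 precursor and is needed for active PC2. It lies on chromosome 2, 113776362 to 113829121 on the minus strand (ENSMUSG00000023236). Beta cells held 1369.6 and 1315 non-hormone CPM in KO and 1851 and 2056 in WT libraries, with no overlap. Scg5 fell by 0.56 relative to the bulk of genes (SE 0.0952, edgeR adjusted p = 0.0038), and per cell it was instead higher, with 31.4 and 33.9 UMIs in KO and 23.4 and 27.4 in WT beta cells (log2 change 0.36, adjusted p = 0.029).

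Scg5 was the only member called lower in all 3 classes. Alpha cells held 2053 and 2027 non-hormone CPM in KO and 2540 and 2687 in WT libraries, and Scg5 fell by 0.47 (SE 0.0797, adjusted p = 0.0083). Delta cells held 1639 and 1635 in KO and 1819 and 1946 in WT libraries, and Scg5 fell by 0.29 (SE 0.0750, adjusted p = 0.035). Per cell, the changes turned to 0.30 in alpha cells and 0.38 in delta cells, both called. The difference of the beta from the alpha effect was not called by the interaction test (log2 difference -0.09, SE 0.0873, adjusted p = 0.50), while the fall in beta cells exceeded that in delta cells by 0.24 (difference -0.24, SE 0.0599, adjusted p = 0.0092). The delta call was lost in 3 of 4 fits that left out a library: without WT library 2 (adjusted p = 0.13), KO library 1 (0.084) or KO library 2 (0.11). It was also lost with stricter class thresholds (-0.25, adjusted p = 0.068). The difference between beta and delta cells was also no longer called without WT library 2 (adjusted p = 0.056) or KO library 2 (0.062).

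Cpe encodes carboxypeptidase E, which removes the basic residues left by the convertases, and lies on chromosome 8, 64592542 to 64693054 on the minus strand (ENSMUSG00000037852). Beta cells held 1891 and 2014 non-hormone CPM in KO and 2604 and 2305 in WT libraries. The KO values were lower without overlap, and Cpe fell by 0.35 (SE 0.0911, edgeR adjusted p = 0.021). The call was lost without KO library 1 (log2 change -0.29, adjusted p = 0.18) or KO library 2 (-0.38, adjusted p = 0.10). Per cell Cpe was higher, with 43.3 and 51.9 UMIs in KO and 32.9 and 30.7 in WT beta cells (log2 change 0.58, adjusted p = 5.2e-04). In alpha cells (1815 and 1857 in KO, 1903 and 1814 in WT libraries, non-hormone CPM) and delta cells (1167 and 1213 in KO, 1248 and 1142 in WT libraries) the groups overlapped and edgeR made no call. The beta effect was more negative than the delta effect by 0.23 (difference -0.23, SE 0.0577, adjusted p = 0.011), a call that was lost without KO library 1 (adjusted p = 0.063) and with stricter class thresholds (difference -0.19, adjusted p = 0.052).

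Pam encodes the amidating enzyme, which acts on peptides such as amylin and pancreatic polypeptide, and lies on chromosome 1, 97795114 to 98095646 on the minus strand (ENSMUSG00000026335). Beta cells held 571 and 643 non-hormone CPM in KO and 554 and 518 in WT libraries. Both KO values were above both WT values, but edgeR made no call (log2 change 0.16, SE 0.0842, adjusted p = 0.17). Per cell Pam stood at 13.1 and 16.6 UMIs in KO and 7.01 and 6.91 in WT beta cells (log2 change 1.09, called). Its level was highest in delta cells, at 932 and 1097 in KO and 1031 and 1013 in WT libraries, where the groups overlapped (log2 change -0.10, adjusted p = 0.51). In alpha cells the groups also overlapped (-0.03, adjusted p = 0.86), and the effect in beta cells was higher than that in delta cells by 0.29 (SE 0.0589, adjusted p = 0.0027).

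PP cells, of which each library held 118 to 231, were not fitted and are given by level. Pcsk2 was at 2836 and 3215 non-hormone CPM in KO and 4525 and 3367 in WT libraries. Scg5 was at 2451 and 2509.7 in KO and 3295 and 3537 in WT libraries. Pcsk1n was at 3750.3 and 3703 in KO and 4119 and 4986 in WT libraries. On this scale all 3 genes were lower in both KO libraries without overlap, whereas Cpe (1714 and 1679 in KO, 1811 and 1668 in WT) and Pam (612.7 and 728.6 in KO, 781.1 and 662.0 in WT) overlapped. The share of all genes without overlap in PP cells was not counted, so these are levels and are not read as changes. Counted per cell the direction turned, with 50.9 and 57.4 Pcsk1n UMIs in KO and 35.7 and 43.4 in WT PP cells, and 33.2 and 38.9 Scg5 UMIs in KO and 28.5 and 30.8 in WT PP cells. Pcsk2 overlapped per cell, at 38.5 and 49.8 UMIs in KO and 39.2 and 29.3 in WT PP cells.

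**Figure D2:**
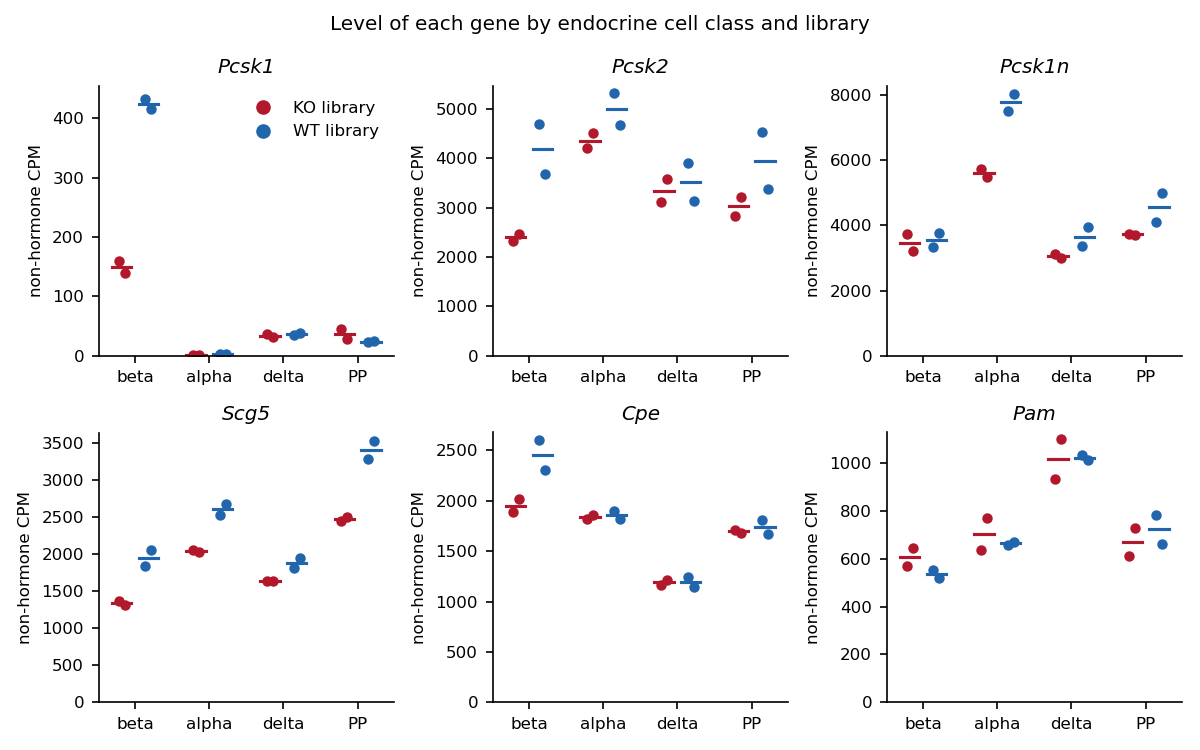
Level of each gene (y axes, non-hormone CPM) in beta, alpha, delta and PP cells (x axes), with 1 point per library, KO left of WT, and a line at the mean of each genotype. Pcsk1 stands high only in beta cells and is lower there in both KO libraries. In alpha cells Pcsk1n, Scg5 and Pcsk2 are lower in both KO libraries, while Pcsk1n overlaps between genotypes in beta cells.

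Counted together, 4 of the 6 genes were called lower in beta cells (Pcsk1, Pcsk2, Scg5 and Cpe), none higher, and Pcsk1n and Pam were not called. Of all 14836 genes tested there, 41.6% were called and 21.2% were called lower, and without KO library 2 or KO library 1 the number called was 3548 or 3964 in place of 6168. In alpha cells 2 of the 6 were called, both lower (Pcsk1n and Scg5), against 14.9% of 12735 genes called and 9.12% called lower. Leaving out a library lowered the 1903 calls of alpha cells to between 146 (without KO library 1) and 1214 (without WT library 1), with 217 without KO library 2 and 1079 without WT library 2. In delta cells the same 2 genes were called lower, against 7.84% of 11653 genes called and 4.80% called lower. The 914 calls of delta cells became 257 without WT library 2, 496 without WT library 1 and 526 without KO library 2. The effect of the knockout differed between beta and alpha cells for 2 of the 6 genes, with 25.3% of 14680 genes called, and between beta and delta cells for all 6, with 17.4% of 14619 genes called.

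**Figure D3:**
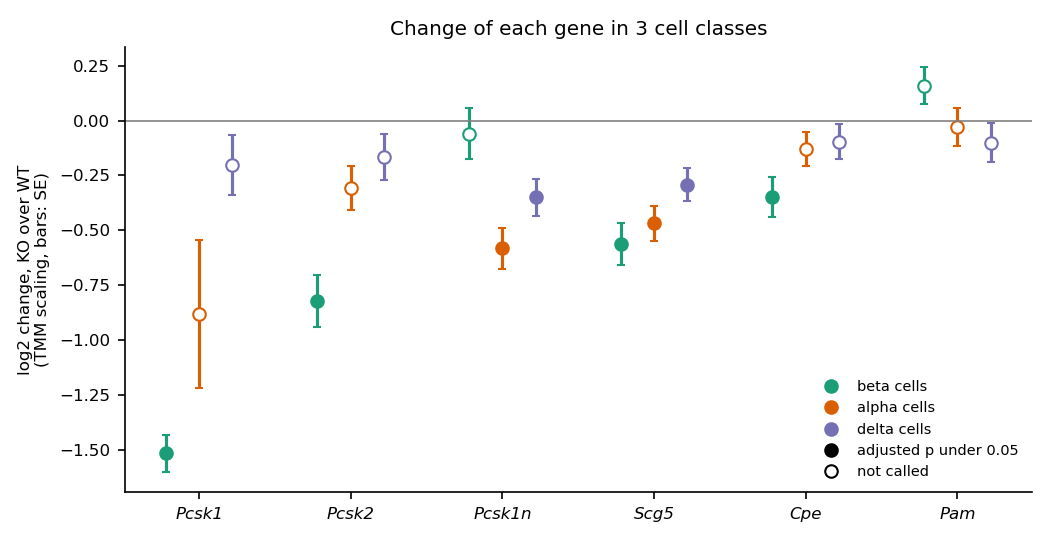
Log2 change of each gene, KO over WT (y axis, TMM scaling), in beta, alpha and delta cells, with standard errors as bars and filled points where edgeR's adjusted p was under 0.05. Pcsk1 in beta cells is the lowest point at -1.52, and the alpha cell value of Pcsk1 rests on 8 to 35 UMIs per library.

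The direction of some calls in beta cells depended on what a level is set against. The median gene tested stood at 0.0019 on the log2 scale under TMM scaling, 0.91 per UMI of all genes and 0.93 per cell. On the last 2 scales Pcsk1 stayed lower (-0.60 on both), Pcsk2 stood at 0.083 and 0.11 without a call, and Scg5 (0.35 and 0.36), Cpe (0.56 and 0.58), Pcsk1n (0.86 on both) and Pam (1.07 and 1.09) were called higher. The order of the genes ran from Pcsk1 through Pcsk2, Scg5, Cpe and Pcsk1n to Pam. A change of scaling moves all genes by nearly the same amount. The order is therefore alike on each scale by construction and is no further result.

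**Figure D4:**
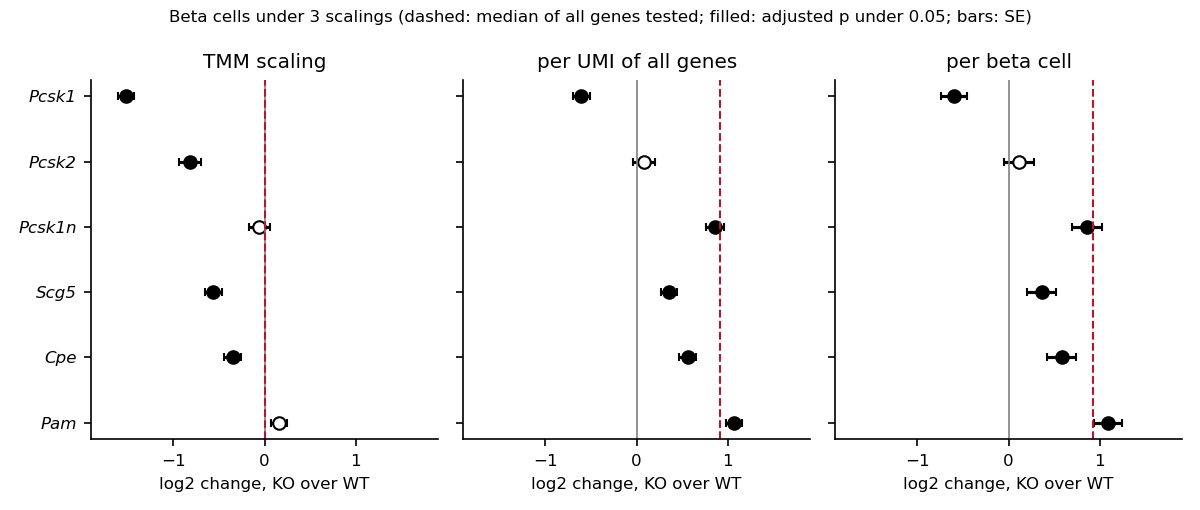
Log2 change in beta cells, KO over WT (x axes), of each gene under TMM scaling, per UMI of all genes and per beta cell, with standard errors as bars, filled points where edgeR's adjusted p was under 0.05, and the median of all genes tested as a dashed line. Pcsk1 is left of 0 in all 3 panels, whereas Scg5 and Cpe cross from left to right.

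Ratios between members within the same cells do not depend on the scaling. Pcsk1 made up 6.47% and 5.33% of the Pcsk1 and Pcsk2 UMIs of beta cells in KO libraries, against 8.45% and 10.1% in WT libraries (5.90% ± 0.804 in KO and 9.28% ± 1.17 in WT, SD, n = 2 each, exact permutation p = 0.33). Beta cells held 23.2 and 23.1 Pcsk1n UMIs per Pcsk1 UMI in KO libraries, against 7.76 and 9.10 in WT libraries (23.2 ± 0.0748 in KO and 8.43 ± 0.952 in WT). Cpe UMIs per Pcsk2 UMI were 0.815 and 0.814 in KO and 0.556 and 0.625 in WT libraries. These 3 ratios did not overlap between genotypes, and 0.33 is the smallest p that an exact two-sided permutation test of 2 against 2 libraries allows. Scg5 UMIs per Pcsk2 UMI overlapped, at 0.591 and 0.531 in KO and 0.395 and 0.558 in WT beta cells (exact permutation p = 0.67). Within delta cells, Pcsk1 made up 1.15% and 0.893% of the Pcsk1 and Pcsk2 UMIs in KO and 0.888% and 1.23% in WT libraries, and the genotypes overlapped. Within PP cells this share was higher in KO (1.56% and 0.894%) than in WT libraries (0.504% and 0.719%). It rests on 138 and 53 Pcsk1 UMIs in KO and 28 and 49 in WT libraries. The PP classes also differed in Iapp, with 1.05% and 1.09% of UMIs in KO and 0.258% and 0.118% in WT libraries. The part of this difference in the PP share of Pcsk1 was not tested. Cpe UMIs per Pcsk2 UMI were also higher without overlap in KO alpha cells (0.433 and 0.411 against 0.359 and 0.389) and KO PP cells (0.604 and 0.522 against 0.400 and 0.495), but overlapped in delta cells. These are ratios of UMIs of 3′ ends, not of enzymes.

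Insulin UMIs chose the beta cells, so the ratio of substrate to enzyme is given as a description only. KO beta cells held 5145 and 6644 insulin UMIs per Pcsk1 UMI and WT beta cells 5833 and 6375, so the genotypes overlapped. Per Pcsk2 UMI there were 355.8 and 374.2 in KO and 538.6 and 716.6 in WT beta cells. Per Cpe UMI there were 436.4 and 459.5 in KO and 968.4 and 1146 in WT beta cells. The number of insulin UMIs relative to Pcsk2 and to Cpe was thus lower in both KO libraries, without overlap.

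**Figure D5:**
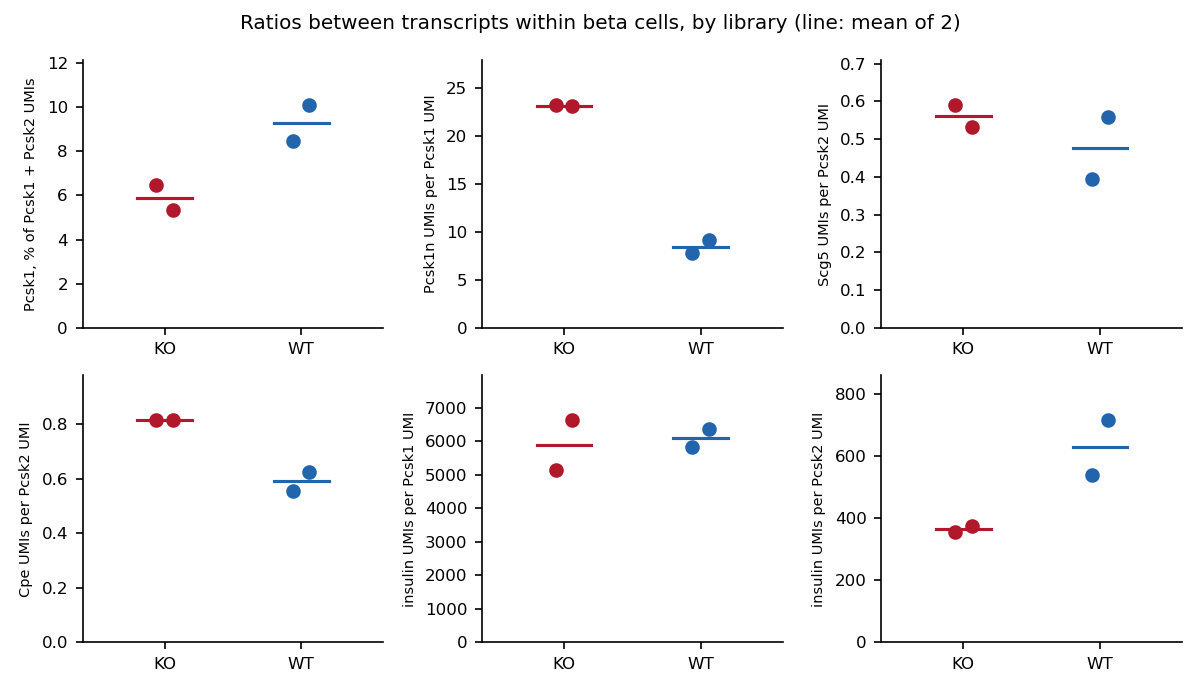
Ratios of UMIs within beta cells (y axes, each named) for the 2 KO and 2 WT libraries (points, with the mean as a line). Pcsk1n per Pcsk1 is above 23 in both KO and below 10 in both WT libraries, while insulin per Pcsk1 overlaps.

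KO beta cells also differed from WT beta cells in markers, mitochondrial share and cells with a further hormone. The summed level of 5 beta cell markers other than the hormone genes (Slc2a2, G6pc2, Pdx1, Nkx6-1 and Mafa) was 765 and 787 non-hormone CPM in KO and 2726 and 2623 in WT beta cells. Mitochondrial genes took a median of 3.65% and 3.57% of the UMIs of KO beta cells and 1.74% and 1.70% of those of WT beta cells, and 3.72% and 3.75% in KO and 2.48% and 2.47% in WT alpha cells. The summed level of 5 alpha cell markers other than Gcg was 331.3 and 318.2 non-hormone CPM in KO and 864.0 and 987.4 in WT beta cells, with none of the markers of either list at 0. In alpha cells of the KO libraries the same sum was 16378 and 16667. Of KO beta cells, 10.0% and 6.40% had at least 3% of their UMIs from Gcg, Sst or Ppy, against 1.16% and 0.868% of WT beta cells. Without these cells the log2 changes were -1.50 for Pcsk1, -0.81 for Pcsk2, -0.58 for Scg5, -0.34 for Cpe, -0.06 for Pcsk1n and 0.16 for Pam, and 4 genes were called as before. The part of the marker and mitochondrial differences in the results on the 6 genes was not tested.

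The levels of the members within beta cells are also described by insulin content, the value that chose the cells, with no test. Cells of each library were divided by insulin share into a low, a middle and a high tertile, and median depth was higher with each (34768, 43338 and 53072 UMIs in KO library 1). The part of depth in these levels was not tested. The tertiles are not alike between genotypes: median insulin in the high tertile was 50.8% and 53.9% in KO libraries, below the 61.7% and 63.7% of the low tertile in WT libraries. Pcsk2 was at 2083, 2256 and 2631 non-hormone CPM in the low, middle and high tertile of KO library 1, and at 2168, 2416 and 2860 in KO library 2. In WT library 1 it was at 4197, 4819 and 5057, and in WT library 2 at 3554, 3749 and 3774. Pcsk1 was at 149.7, 151.5 and 180.7 in KO library 1 and 126.1, 129.2 and 164.0 in KO library 2, against 407.3, 448.0 and 441.8 in WT library 1 and 421.0, 416.5 and 404.2 in WT library 2. Every tertile of both KO libraries was thus below every tertile of both WT libraries for Pcsk1 and for Pcsk2. Scg5 was at 1393, 1358 and 1357 in KO library 1 and 1348, 1273 and 1323 in KO library 2, against 1579, 1890 and 2104 in WT library 1 and 1783, 2057 and 2383 in WT library 2. The 3 values rose with insulin content in both WT libraries and in neither KO library, and this difference between genotypes was not tested. It was not particular to Scg5. Pcsk1n was at 3739, 3761 and 3665 in KO library 1 and 3259, 3178 and 3218 in KO library 2. In WT library 1 Pcsk1n was at 3009, 3335 and 3751, and in WT library 2 at 3476, 3729 and 4180. Cpe rose with insulin content in every library. Pam was lower in the high than in the low tertile of 3 libraries, with 531.2 against 613.7 in KO library 1, 519.9 against 585.2 in WT library 1 and 487.4 against 544.0 in WT library 2, but not in KO library 2 (658.4 against 642.8).

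Cells with and without a UMI of Mafa, a transcription factor of mature beta cells, were also compared after thinning. Such cells were 10.3% and 13.8% of KO and 62.4% and 61.4% of WT beta cells. With Mafa, the mean Pcsk1 count per thinned cell was 0.419 and 0.380 in KO and 0.946 and 0.864 in WT libraries. Without Mafa it was 0.322 and 0.275 in KO and 0.700 and 0.713 in WT libraries. Pcsk1 was thus higher in cells with a Mafa UMI in all 4 libraries, and lower in KO than in WT in both kinds of cell. This was not particular to Pcsk1, since Pcsk2 was also higher in cells with a Mafa UMI in all 4 libraries. Pcsk1n, Scg5 and Pam were lower in such cells in all 4, and Cpe differed in direction between libraries. Between members, Spearman correlations over thinned beta cells of a library ran from -0.06 to 0.14, weak values at this depth.

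The genes whose levels ran most like those of each member were sought over 28 sums, from 7 cell classes in 4 libraries, by Pearson correlation of log2 non-hormone CPM plus 1, among 6556 genes. The sums share libraries and class differences, so the correlations describe mostly where genes are on. Pcsk1 was most like Rnf182 (r = 0.967), Jakmip1 (0.948) and Pdx1 (0.947), and Pcsk2 like Spint2 (0.993), Rab25 (0.990) and Tm4sf4 (0.989). Pcsk1n was most like Scg5 (0.994), Pcbd1 (0.991) and Tm4sf4 (0.990), and Scg5 like Resp18 (0.995), Pcsk1n (0.994) and Tm4sf4 (0.991). Cpe was most like Apbb1 (0.988), Mapk8ip1 (0.987) and Meg3 (0.985), and Pam like Cdk8 (0.990), Meg3 (0.986) and Hmgn3 (0.979).

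The precursors on which these enzymes act did not change in 1 direction in beta cells. Of 16 listed substrates other than Ins1, Ins2, Gcg and Sst, 15 were tested, 3 were higher, 4 lower and 8 not called, beside 41.6% of all genes called, with a median log2 change of -0.11 (0.0019 over all genes). Pyy, the peptide YY gene, rose by 3.43 (log2, SE 0.286, edgeR adjusted p = 2.7e-04), with 41438 and 22278 CPM, on the same denominator, in KO and 2873 and 2961 in WT beta cells. Ppy rose by 2.55 and Nucb2, the nesfatin precursor gene, rose by 0.90, with 575.1 and 582.5 non-hormone CPM of Nucb2 in KO and 315.1 and 298.1 in WT beta cells. Scg3, which encodes the granule protein secretogranin 3, fell by 0.87, at 856.6 and 841.9 in KO and 1503 and 1547 in WT beta cells, but stood at 0.06 as a log2 ratio per cell. The other lower genes, named after their values were seen, were Npy (-3.95), Vgf (-1.59) and Iapp (-0.77). Counted per cell Iapp was not lower, at 2833 and 2970 UMIs in KO and 2424 and 2813 in WT beta cells. In alpha cells 5 of 15 substrates tested were lower and none higher (9.12% of all genes were lower), and in delta cells 5 of 13 were lower and none higher (4.80% of all genes).

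Other proprotein convertases were mostly higher in KO beta cells. Of 6 tested in beta cells, 4 were higher, 1 lower and 1 not called (median 0.22). Of all 14836 genes, 3018 were called higher, and 41.6% were called in either direction. Pcsk6, which encodes PACE4, rose by 1.13 (SE 0.0902, edgeR adjusted p = 2.3e-04) at low levels, with 34.7 and 34.8 non-hormone CPM in KO and 17.2 and 14.2 in WT beta cells. Furin, the convertase of the trans-Golgi network, rose by 0.26 and Pcsk4 by 0.33. In alpha cells 2 of 7 were higher and in delta cells 1 of 6, with none lower in either (14.9% and 7.84% of all genes called).

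Of 15 other peptidases and modifying enzymes tested in beta cells, 3 were higher, 3 lower and 9 not called (median -0.12), a share called close to the 41.6% of all genes. Qpctl, which encodes a glutaminyl cyclase of the Golgi, rose by 0.46, at 36.4 and 37.1 non-hormone CPM in KO and 26.0 and 26.5 in WT beta cells. Tpst1, a tyrosylprotein sulfotransferase gene, rose by 0.37. Ctsl, the cathepsin L gene, fell by 0.39, at 523.0 and 492.6 in KO and 622.4 and 688.7 in WT beta cells, with a log2 ratio of 0.53 per cell. Cpn1 fell by 0.23 but stood at 0.70 per cell. Qpct, the secreted glutaminyl cyclase gene, fell by 1.67 and is outside the rule for named genes. In alpha cells 2 of 15 were higher and 1 lower (14.9% of all genes were called), and in delta cells 3 of 13 were higher and none lower (7.84% of all genes).

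The proton pump that acidifies granules, on which the convertases depend, was mostly lower relative to the bulk of genes. Of 16 subunit and accessory genes tested in beta cells, 13 were called lower (21.2% of all genes were), 1 higher (Atp6v0e, 0.41, chosen after seeing its value) and 2 not called, with a median log2 change of -0.45. Atp6v1g1, a subunit gene of the catalytic part, fell by 0.77 (SE 0.0770, edgeR adjusted p = 5.0e-04), at 430.9 and 409.9 non-hormone CPM in KO and 693.4 and 723.1 in WT beta cells. Atp6v1f fell by 0.61, Atp6v1h by 0.57 and Atp6v1e1 by 0.56 on the same log2 scale. Per cell these 4 genes were not lower, with log2 ratios of 0.15, 0.31, 0.36 and 0.36 in the same order. Atp6ap2, an accessory subunit gene chosen after its value was seen, fell by 1.44. In alpha cells 6 of 16 were called lower and none higher (median -0.21), against 9.12% of all genes called lower. In delta cells 5 of 16 were called lower and none higher (median -0.12), against 4.80% of all genes.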

How the data were processed

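UMI counts per gene and cell were deposited as 1 table per library, and the authors made them with Cell Ranger 3.0.0 on mm10 and also list Seurat 2.3.4, per the submitters' processing notes. The counts are not normalized, and deposited cells had at least 501 detected genes and up to 9.96% of UMIs from mitochondrial genes. Doublets were scored against simulated doublets (2000 variable genes, 30 principal components, 60 neighbours) and the top 0.8% per 1000 cells of each library were removed, 150 and 49 KO and 283 and 273 WT cells. UMIs were summed per class and library. KO was compared with WT by edgeR 4.0.16 (R 4.3.3, limma 3.58.1; quasi-likelihood test, TMM, filterByExpr), with p-values adjusted over all genes tested by Benjamini-Hochberg and a threshold of 0.05. The difference between classes was tested as a genotype-by-class term, with libraries as blocks. Log2 changes are KO over WT. Ratios used an exact two-sided permutation test.

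The members and gene lists were chosen with earlier results of these data known. Named genes are the 6 members, from each list the 4 genes with the lowest p in the beta cell fit among those of at least 5 CPM in either genotype and not sex-linked, and for each member the 3 genes most correlated with it (classes of at least 20 cells per library, genes of at least 50 CPM); any other gene is marked as chosen later, and 1 gene that the rule names is not reported here. Endothelial cells were taken by at least 10 marker UMIs. Alternatives were library size only, sums per cell, RLE size factors, DESeq2 1.42.0, no filter on low counts, a filter at a mean of 20 counts, fits without the hormone genes, fits with doublets kept, stricter classes (insulin of at least 20%; other hormones of at least 10% with insulin under 2%), beta cells with another hormone left out, each library left out in turn, and a block for the replicate number. The fits were tested on simulated counts with 200 genes changed, picked among genes with a mean of at least 20 expected counts. All were changed by the same amount, with a median absolute log2 change of 1.01 in the beta cell fit. The same spread between libraries was set for every gene. They recovered 92% of these in beta, 89.5% in alpha and 87.5% in delta cells. Of simulated differences between classes, 75% were recovered for beta against alpha cells and 54% for beta against delta cells. False calls were 6.60% of the calls in beta cells and 7.41% for beta against alpha cells, and below 5% in the others (4.28%, 3.31% and 3.57%). Most changes of the members were smaller than the simulated ones, so these rates do not describe how well such changes are called. Gene positions are from GENCODE vM21 (GRCm38). SciPy 1.17.1, NumPy 2.4.6, scikit-learn 1.9.0, pandas 2.3.3 and matplotlib 3.10.9 ran under Python 3.11.15.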

Additional observations from a re-analysis of the deposited data

Results flagged for a closer look

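The effect of the knockout differed between cell classes for the following genes, by edgeR's interaction test with the library as a block and Benjamini-Hochberg adjustment over all genes. Between beta and alpha cells the log2 difference was -0.51 for Pcsk2 and 0.53 for Pcsk1n. Between beta and delta cells it was -1.28 for Pcsk1, -0.63 for Pcsk2, 0.31 for Pcsk1n, -0.23 for Cpe, -0.24 for Scg5 and 0.29 for Pam. A negative value means that the KO over WT change was more negative in beta cells. After scaling by the number of cells, the differences of Cpe and Scg5 from delta cells were -0.0072 and -0.023 and were not called, and that of Pcsk2 from alpha cells was -0.35 and was not called (adjusted p = 0.0895).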

How the results depend on the processing

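Each genotype has 2 libraries of 99156230 to 228515309 UMIs, and 2 libraries leave little to measure the spread between them. In beta cells Pcsk1, Pcsk2 and Scg5 were called in each of 13 alternatives relative to the median gene, with Pcsk1 between -1.61 and -1.41. Without WT or KO replicate 1 or 2 in turn, the genes called ranged from 3548 to 5823 (6168 with all libraries) in beta cells, 146 to 1214 (1903) in alpha cells and 257 to 841 (914) in delta cells, the members called in delta cells from 0 to 2, and Cpe in beta cells from -0.42 to -0.29. With library size only and scaled by cell number, the genes called were 12973 and 12953 in beta cells and 3458 and 11048 in alpha cells, and 8854 in delta cells scaled by cell number. In beta cells these scalings gave log2 changes of 0.083 and 0.11 for Pcsk2, 0.86 and 0.86 for Pcsk1n, 0.56 and 0.58 for Cpe, 0.35 and 0.36 for Scg5, and 1.07 and 1.09 for Pam. Scaled by cell number, alpha cells gave 0.46 for Pcsk2, 0.18 for Pcsk1n, 0.64 for Cpe, 0.30 for Scg5 and 0.74 for Pam, with 4 members called. Delta cells gave 0.46 for Pcsk1, 0.53 for Pcsk2, 0.32 for Pcsk1n, 0.59 for Cpe, 0.38 for Scg5 and 0.58 for Pam, with 5 called, and 0 with library size only. With library size only, the difference of beta from alpha cells was 0.18 for Pcsk2, 0.48 for Cpe and 0.60 for Scg5, with 5 members called, and from delta cells 0.11 for Pcsk2, 0.51 for Cpe and 0.50 for Scg5. The median gene moved by 0.91 in beta cells with library size only, where insulin held a smaller share of KO than of WT UMIs, and by 0.93 scaled by cell number. DESeq2 called 890 genes in alpha and 442 in delta cells. Without a filter on low counts 1559 genes were called in delta cells, and with stricter class thresholds 561 genes and 1 member. Without doublet removal 4 members differed between beta and alpha cells.

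Same-numbered libraries did not deviate together (correlation of deviations 0.019 in beta, -0.012 in alpha and 0.063 in delta cells), and the main fits used no pairing. These correlations cannot show whether same-numbered libraries were prepared together. With the replicate block, 6044 genes were called in beta, 1818 in alpha and 860 in delta cells; Cpe in beta cells was -0.35 with an adjusted p of 0.059, and Scg5 in delta cells was -0.29 with an adjusted p of 0.064, which left 1 member called there.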
